A study of Mus musculus with 6 samples.

Results

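The core circadian clock genes were examined in inguinal white adipose tissue, fat that lies under the skin of the groin. The 10 genes were taken by name from the gene table of 57180 genes: Clock, Per1, Per2, Per3, Cry1, Cry2, Nr1d1, Nr1d2, Dbp and Tef. The list was chosen with earlier results of these data known. It leaves out Bmal1, which is reported with the other loop genes. Each name matched 1 row, and all 10 passed the filter, which required the average over the 6 libraries to reach 1 TPM. The tissue came from wild-type male mice in a study of diet-induced obesity. The group called HFD received a high-fat diet, and the group called HEP received a high-fat diet with 0.5% hesperidin, a flavonoid glycoside of citrus peel, so both groups carried the high-fat diet. The diets lasted 12 weeks, each group had 3 libraries, and all carried batch label 1. A control diet is part of the study's design and was not analysed here. The labels used here give no age or strain and no hour at which the tissue was collected, and they do not say whether each library came from a separate animal. The p-values therefore measure only the spread between these libraries, which may be technical. TPM is the share of a library's transcripts, scaled to a fixed total, after division by transcript length, so levels of different genes can be set side by side. It keeps no read depth, and no counting interval could be given.

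The mammalian clock is a transcriptional feedback loop that runs in nearly every cell, fat cells included. CLOCK pairs with BMAL1 and switches on the Per and Cry genes through short DNA elements called E-boxes, and the PER and CRY proteins then gather in the nucleus and shut that pair off. In a further loop the nuclear receptors REV-ERB alpha and beta, encoded by Nr1d1 and Nr1d2, repress Bmal1, while ROR receptors activate it. DBP and TEF are PAR bZIP transcription factors that pass the rhythm on to output genes through D-boxes. Transcripts of most of these genes rise and fall over the day, with Bmal1 peaking far from Nr1d1, Dbp and the Per genes, and in adipose tissue the clock times lipid storage and release.

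The sequences below show where the letters of E-boxes and D-boxes occur before the start sites of some members. RefSeq promoter windows on build GRCm38.p6 were found for 9 of the 10 genes by symbol, in 13 entries, with Per2 unmatched. The 250 bases before each start site were searched on both strands for the E-box CACGTG, the D-box letters TTATGTAA and TTACGTAA, and the ROR element letters TAGGTCA, none of which overlapped another in these windows. The E-box was found for 3 genes, Cry1, Per1 and Tef, and TTATGTAA for 1 gene, Per3, while the others searched had 0 matches in these windows. Among all 32851 windows of the table, 6.02% held CACGTG, 0.819% held TTATGTAA, 0.113% held TTACGTAA and 2.23% held TAGGTCA. These shares are of windows, from 27025 genes, whereas the member counts are of genes with a match in any of their windows. A match describes the letters and does not show that a factor binds there. Other spellings of these elements were not searched, so a window without a match may still hold one. In the windows of the 4 genes with a match, capitals mark the E-box or D-box, and each runs 5′ to 3′ on the gene's strand.
Per3 (chr4:151044666-151044915, minus strand): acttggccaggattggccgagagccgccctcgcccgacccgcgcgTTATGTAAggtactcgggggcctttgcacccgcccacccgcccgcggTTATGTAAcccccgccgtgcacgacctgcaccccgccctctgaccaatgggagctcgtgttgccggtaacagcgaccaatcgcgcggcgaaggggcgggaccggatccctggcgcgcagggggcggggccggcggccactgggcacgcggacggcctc
Per1 (chr11:69098699-69098948, plus strand): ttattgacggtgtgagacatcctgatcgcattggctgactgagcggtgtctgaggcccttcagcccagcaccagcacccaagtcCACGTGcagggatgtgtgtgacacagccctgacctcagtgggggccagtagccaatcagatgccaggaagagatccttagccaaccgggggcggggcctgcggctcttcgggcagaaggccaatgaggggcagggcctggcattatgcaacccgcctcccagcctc
Cry1 (chr10:85185055-85185304, minus strand): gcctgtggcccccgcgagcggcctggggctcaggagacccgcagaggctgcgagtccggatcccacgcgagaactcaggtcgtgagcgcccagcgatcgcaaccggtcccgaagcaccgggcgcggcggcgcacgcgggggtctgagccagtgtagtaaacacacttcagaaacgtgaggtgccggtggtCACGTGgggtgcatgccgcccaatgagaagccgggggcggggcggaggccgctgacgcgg
Tef (chr15:81802423-81802672, plus strand): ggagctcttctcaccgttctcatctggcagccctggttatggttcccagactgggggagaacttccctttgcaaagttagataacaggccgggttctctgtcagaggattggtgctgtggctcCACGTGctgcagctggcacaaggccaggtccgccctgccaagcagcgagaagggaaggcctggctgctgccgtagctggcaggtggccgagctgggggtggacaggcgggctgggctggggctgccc
In the Per3 window the D-box letters start 205 and 158 bases before the start site. The E-box starts 166 bases before it in Per1, 60 bases before it in Cry1 and 127 bases before it in Tef. Tef and Per1 each have a further listed start site. That further window held an E-box as well for Tef and none for Per1.

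Before the clock genes are compared, the makeup of the libraries has to be known. All 12 adipocyte markers were above 0 in all 6 libraries, and their summed level was 40476 to 52395 TPM under HFD and 29743 to 51586 TPM under HEP. All 8 B cell markers and all 8 T cell markers were above 0 throughout, but their sums differed by library. B cell markers summed to 6.4 and 7.0 TPM in HFD replicates 1 and 2 and 6.6 TPM in HEP replicate 2, against 586 TPM in HFD replicate 3 and 1179 and 1289 TPM in HEP replicates 1 and 3. T cell markers ranged from 7.1 to 534 TPM under HFD and from 9.3 to 766 TPM under HEP, high in the same libraries. The 8 skeletal muscle markers ranged from 76.7 to 633 TPM under HFD and from 52.0 to 12931 TPM under HEP, the highest in HEP replicate 2, with Myh4 at 0 in HEP replicate 3. The 6 liver markers ranged from 56.0 to 1619 TPM under HFD and from 12.7 to 2459 TPM under HEP, the highest values being in HFD replicate 1 and HEP replicate 2. Because these are bulk samples, fewer cells of a type and less RNA per cell cannot be told apart.

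No clock gene passed the test for a difference between the diets. The largest difference in level was that of Nr1d1, with a mean of 101 TPM under HFD and 72.0 TPM under HEP, and its groups overlapped. HEP was compared with HFD by limma on log2(TPM + 1) over 15446 genes, with a threshold of 0.05 on the Benjamini-Hochberg adjusted p. Of the 10 members 0 were called higher and 0 lower, where percent called over all genes was 0. At an unadjusted limma p under 0.05 there were 0 members, against 279 of all genes or 1.81%. The unadjusted counts depended on HEP replicate 2, which was rich in muscle and liver transcripts and the only HEP library poor in lymphocyte transcripts. Without it 3683 of all genes had an unadjusted limma p under 0.05, among them Nr1d1 at 0.0275, with an adjusted p of 0.207. The HEP libraries left were then all rich in lymphocyte markers, as only replicate 3 of HFD was. Diet was thus partly aligned with lymphocyte content in that comparison, and the part of each was not tested. The values of HEP and HFD overlapped for all 10, while 5.46% of all genes had groups that did not overlap, 1.88% with HEP higher and 3.58% with HEP lower. The median log2 fold change of the members was -0.05, with 5 above and 5 below 0, and that of all genes tested was 0.07. The standard errors of the members ran from 0.20 to 0.51, with a median of 0.32, against a median of 0.27 over all genes, so the intervals of several members are wide. Scaling the libraries on the adipocyte markers moved the median of all genes to 0.45 and that of the members to 0.34, with 9 of 10 above 0. Relative to all genes the members' median was then -0.11, against -0.12 as deposited. That scaling turned the direction of Clock, Per1, Cry2 and Dbp, and median-of-ratios scaling turned that of Per2, Nr1d2 and Tef, so no direction is given for the members as a family.

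**Figure D1:**
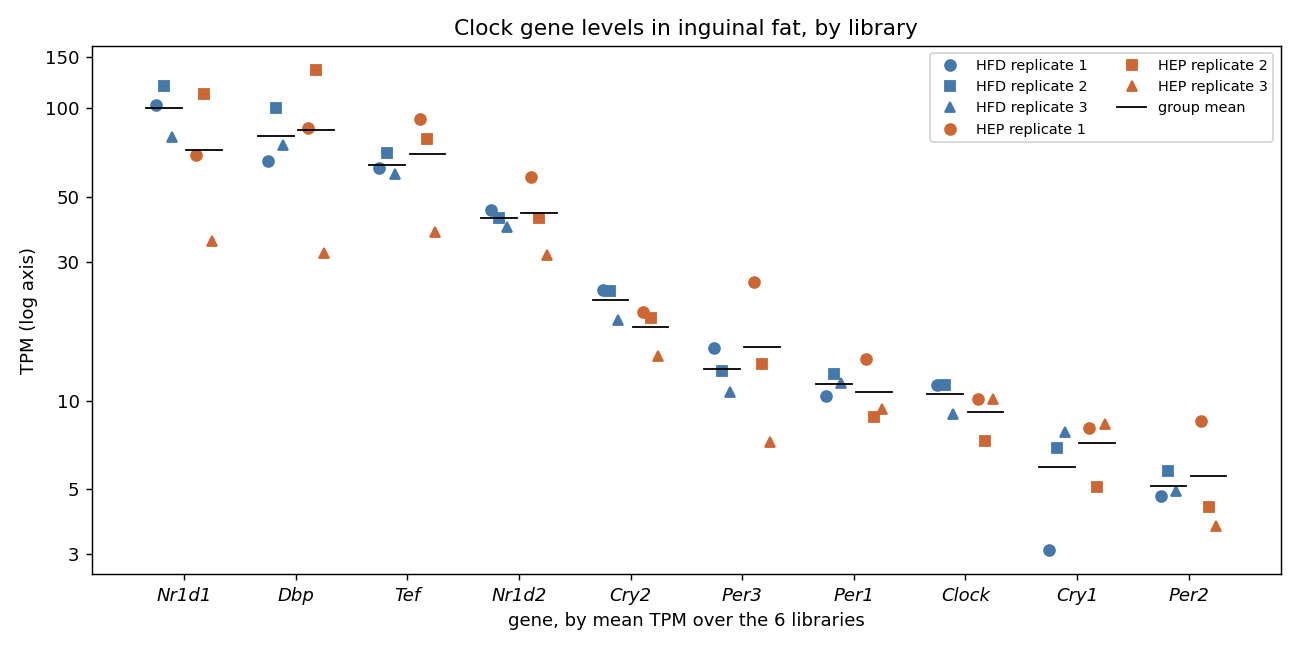
TPM of the 10 clock genes on a log axis, ordered by their mean over the 6 libraries. Points are libraries (circle, square and triangle for replicates 1, 2 and 3, blue for HFD and orange for HEP) and bars are group means. Nr1d1 has the highest mean, 86.4 TPM, and Per2 the lowest, 5.36 TPM, and the orange points are spread more widely than the blue ones for every gene except Cry1.

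Among the members, the repressor receptors and the PAR bZIP factors Dbp and Tef stood highest in level, and the Per, Cry and Clock transcripts were lower. Mean TPM over the 6 libraries was 86.4 for Nr1d1, 82.5 for Dbp, 66.9 for Tef, 43.2 for Nr1d2, 20.1 for Cry2, 14.1 for Per3, 11.1 for Per1, 9.90 for Clock, 6.57 for Cry1 and 5.36 for Per2. The ranges of neighbours in this order overlapped for all pairs except Nr1d2 and Cry2, where the lowest Nr1d2 value, 31.6 TPM, lay above the highest Cry2 value, 24.0 TPM. Within libraries, Tef was above Nr1d2, Nr1d2 above Cry2 and Clock above Cry1 in 6 of 6 libraries.

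Clock encodes the partner of BMAL1 in the activating pair. It had 11.4, 11.3 and 9.05 TPM across HFD replicates 1 to 3 and 10.2, 7.32 and 10.2 TPM across HEP replicates 1 to 3. The lowest value was HEP replicate 2, the library rich in muscle transcripts, and the other HEP values lay within the HFD range. Its means were 10.6 ± 1.33 TPM under HFD and 9.22 ± 1.64 TPM under HEP (SD, n = 3), a log2 fold change of -0.19 ± 0.20 (SE) with a limma adjusted p of 0.879. The fold change was -0.05 with HEP replicate 2 left out and -0.29 with HFD replicate 3 left out.

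Among the Period genes, which encode the repressors whose build-up closes the loop, Per1 had the smallest spread within HEP and Per3 the largest. Per1 had 10.4, 12.4 and 11.5 TPM under HFD and 14.0, 8.82 and 9.38 TPM under HEP. The HEP values fell on both sides of the HFD range. Per2 had 4.75, 5.78 and 4.92 TPM under HFD and 8.56, 4.37 and 3.75 TPM under HEP. Its HEP replicate 1 was above every HFD library and its other HEP libraries were below every one. Per3, whose window held TTATGTAA, had 15.2, 12.7 and 10.8 TPM under HFD and 25.5, 13.4 and 7.26 TPM under HEP. HEP replicate 1 was the highest and HEP replicate 3 the lowest of the 6 libraries. The log2 fold changes were -0.11 ± 0.22, 0.03 ± 0.31 and 0.09 ± 0.42 (SE) for Per1, Per2 and Per3. Adjusted p-values in limma were 0.906, 0.986 and 0.961. Single libraries turned these directions: Per1 had 0.01 without HEP replicate 2, Per2 had -0.02 without HFD replicate 1 and -0.28 without HEP replicate 1, and Per3 had -0.02 with HFD replicate 3 left out and -0.34 with HEP replicate 1 left out.

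The cryptochromes, the other arm of the repressor complex, did not share a pattern. Cry1 had 3.10, 6.93 and 7.85 TPM under HFD and 8.10, 5.11 and 8.34 TPM under HEP. HFD replicate 1 was low, and the remaining libraries of both groups overlapped. Cry2 had 24.0, 23.7 and 18.9 TPM under HFD and 20.3, 19.3 and 14.2 TPM under HEP. All HEP values except replicate 3 lay inside the HFD range. Means of Cry1 were 5.96 ± 2.52 TPM under HFD and 7.18 ± 1.80 TPM under HEP, with a log2 fold change of 0.28 ± 0.36 (SE). For Cry2 they were 22.2 ± 2.87 and 17.9 ± 3.22 TPM (SD, n = 3), with a log2 fold change of -0.30 ± 0.20 (SE). Cry2 had the smallest unadjusted limma p of the members, 0.172, and both cryptochromes had an adjusted p of 0.879. Without HFD replicate 1 the Cry1 fold change was -0.06.

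Nr1d1, which encodes REV-ERB alpha, the main repressor of Bmal1 and a receptor for heme, had the largest difference in group means. It had 103, 119 and 79.7 TPM under HFD and 69.1, 112 and 35.3 TPM under HEP. HEP replicates 1 and 3 were below every HFD library, and HEP replicate 2 lay among them. The means were 101 ± 20.0 TPM under HFD and 72.0 ± 38.2 TPM under HEP (SD, n = 3). The log2 fold change was -0.61 ± 0.42 (SE), with a 95% interval from -1.61 to 0.40 and a limma adjusted p of 0.879. This value depended on single HEP libraries: it was -0.99 without HEP replicate 2, where the adjusted p was 0.207, and -0.18 without HEP replicate 3. All 12 adipocyte markers had a fold change below 0, with a median of -0.42 on the log2 scale, and 0 of them were called. With the libraries scaled on those markers the fold change of Nr1d1 was -0.18, and with the mean of the B and T cell markers as a covariate it was -0.27, and neither passed. The part of adipocyte or lymphocyte content in the Nr1d1 values was not tested. The annotation places 263 exon bases of Nr1d1 opposite Thra, the thyroid hormone receptor alpha gene, which had 34.4 to 53.2 TPM, and 539 exon bases of Dbp opposite Sphk2, at 5.11 to 9.37 TPM. Whether the counting used strand is not given in the sources used here, so reads in those stretches cannot be told apart.

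Nr1d2, which encodes the related REV-ERB beta, had close group means, 42.3 ± 2.74 TPM under HFD and 44.1 ± 13.5 TPM under HEP (SD, n = 3). It had 44.9, 42.4 and 39.4 TPM under HFD and 58.3, 42.3 and 31.6 TPM under HEP. The HFD libraries were close together, and HEP replicates 1 and 3 lay above and below them. The log2 fold change was 0.02 ± 0.24 (SE) with a limma adjusted p of 0.988, and it was -0.03 without HFD replicate 3 and -0.20 with HEP replicate 1 left out. The ratio of Nr1d1 to Nr1d2 TPM was 2.29, 2.82 and 2.02 for HFD and 1.19, 2.64 and 1.12 for HEP, again with HEP replicate 2 among the HFD libraries.

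Dbp, a direct target of CLOCK and BMAL1 with one of the largest daily swings known in mouse tissues, had the widest spread of the members. It had 65.9, 100.2 and 75.2 TPM under HFD and 86.1, 135 and 32.2 TPM under HEP. HEP replicate 2, which was rich in muscle and liver transcripts, was the highest and HEP replicate 3 the lowest of the 6 libraries. The part of muscle or liver content in the Dbp values was not tested. Its means were 80.4 ± 17.7 TPM under HFD and 84.6 ± 51.6 TPM under HEP (SD, n = 3). The log2 fold change was -0.13 ± 0.51 (SE), with a 95% interval from -1.37 to 1.11 and a limma adjusted p of 0.953. The direction turned without HEP replicate 3, where the fold change was 0.44, and without HFD replicate 2, where it was 0.04, and it was -0.58 without HEP replicate 2. Tef had 62.6, 70.4 and 59.8 TPM under HFD and 92.3, 78.9 and 37.8 TPM under HEP. HEP replicates 1 and 2 lay above every HFD library and HEP replicate 3 below. Its log2 fold change was 0.02 ± 0.34 (SE), with a limma adjusted p of 0.990, and it was 0.41 without HEP replicate 3. With HFD replicate 3 left out it was -0.03, with HEP replicate 1 left out -0.23 and with HEP replicate 2 left out -0.11.

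**Figure D2:**
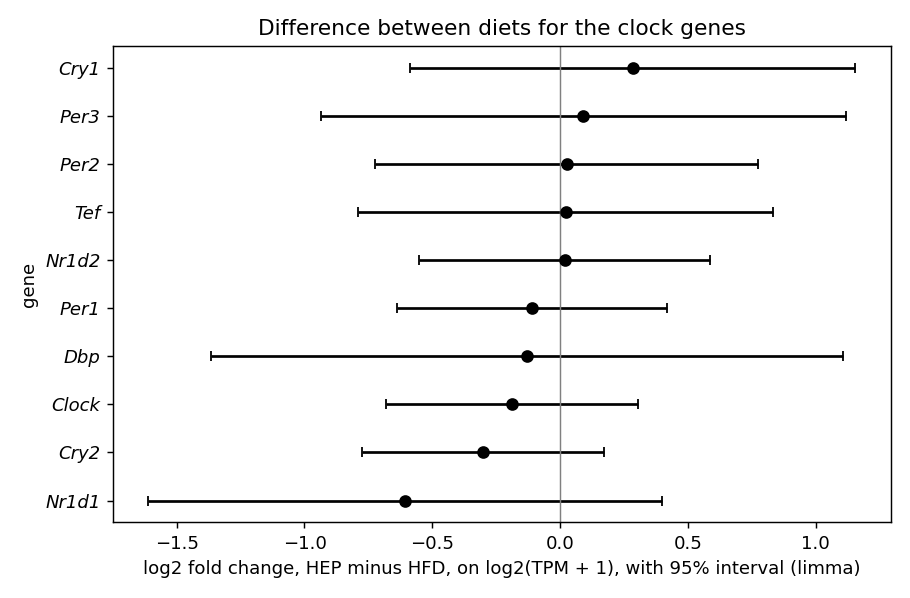
Log2 fold change of each clock gene, HEP minus HFD, on the log2(TPM + 1) scale, with points for the limma estimate and bars for its 95% interval. Every interval includes 0, and the widest is that of Dbp (-1.37 to 1.11), followed by Per3 (-0.94 to 1.12) and Nr1d1 (-1.61 to 0.40).

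Several clock genes were spread more widely among the HEP libraries than among the HFD libraries. The highest HEP library was at least 2-fold the lowest for 5 of 10 members (Dbp, Nr1d1, Per2, Per3 and Tef), against 39.9% of all genes. In HFD this held for 1 of 10, Cry1, against 25.5% of all genes. The ratio of highest to lowest HEP library was 4.21 for Dbp, 3.51 for Per3, 3.16 for Nr1d1, 2.44 for Tef and 2.28 for Per2. In HFD the same genes had ratios of 1.52, 1.41, 1.499, 1.18 and 1.22. The SD of log2(TPM + 1) was larger within HEP than within HFD for 9 of 10 members, all but Cry1, against 71.8% of all genes. The median SD of the members was 0.18 for HFD and 0.49 for HEP, and that of all genes was 0.24 and 0.36. A wider spread in HEP was thus common across genes, and no test of the difference in spread was made.

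**Figure D3:**
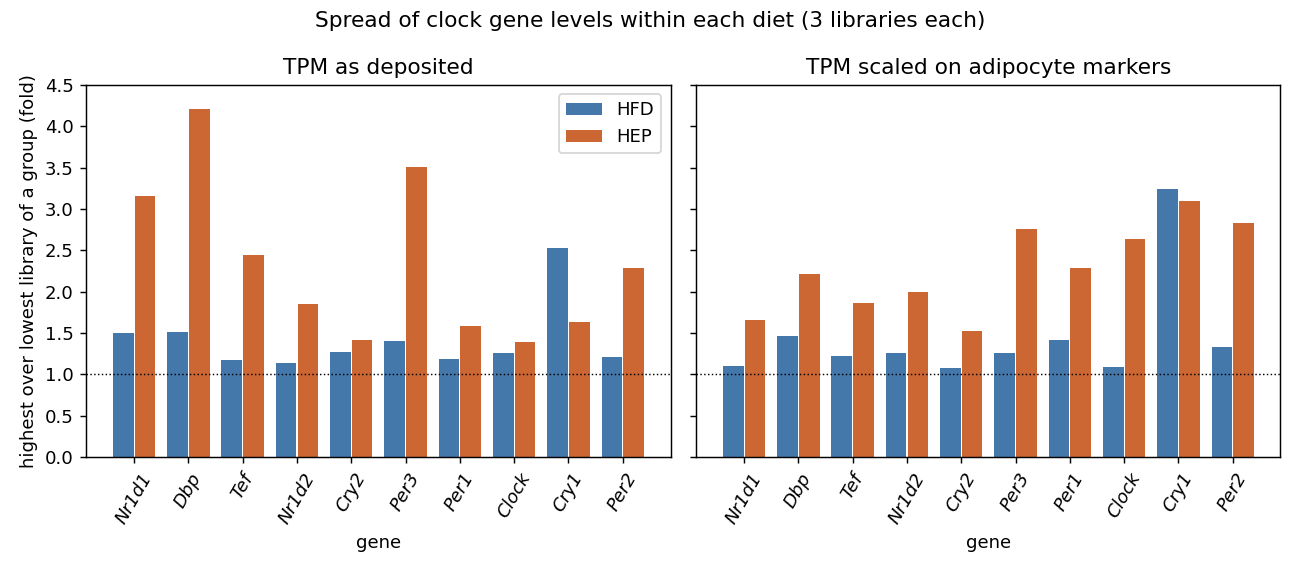
Highest over lowest library within each diet for the 10 clock genes (bars from 0, dotted line at a ratio of 1), for TPM as deposited on the left and after scaling on adipocyte markers on the right. As deposited, the HEP bar is above the HFD bar for every gene except Cry1 and reaches 4.21 for Dbp. After scaling, the HEP ratio is lower for Dbp (2.22), Nr1d1 (1.66), Per3 and Tef. It is higher for Clock (1.39 to 2.63), Cry1 (1.63 to 3.10), Per1, Per2, Cry2 and Nr1d2. The HEP ratio is at least 2-fold for 5 of 10 genes as deposited and for 6 of 10 after scaling.

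HEP replicate 3 was the lowest of the 6 libraries for 7 of 10 members (Cry2, Dbp, Nr1d1, Nr1d2, Per2, Per3 and Tef), against 27.8% of all genes. It was also the lowest for 10 of 12 adipocyte markers and 7 of 8 skeletal muscle markers, so this was not particular to clock genes. For the 8 B cell and 8 T cell markers it was the lowest for 0 and 0. HEP replicate 1 was the highest for 5 of 10 (Nr1d2, Per1, Per2, Per3 and Tef), against 41.4% of all genes. Between these libraries the ratio of HEP replicate 1 to HEP replicate 3 was 3.51 for Per3, 2.67 for Dbp, 2.44 for Tef, 2.28 for Per2, 1.96 for Nr1d1 and 1.85 for Nr1d2. It was 1.00 for Clock and 0.97 for Cry1. The median ratio was 1.90 over the members and 1.17 over all genes, and 6 of 10 members reached 1.5-fold, against 18.1% of all genes. These libraries had like amounts of B cell marker transcripts, 1179 and 1289 TPM, and differed in skeletal muscle markers, 1491 and 52.0 TPM, and in the mean log2 level of adipocyte markers, 9.88 and 9.49. With TPM scaled on adipocyte markers, 4 of 10 members (Dbp, Per2, Per3 and Tef) reached 1.5-fold, against 7.26% of all genes. On that scale the highest HEP library was at least 2-fold the lowest for 6 of 10 members, against 60.4% of all genes. HEP replicate 3 then was the lowest library for Dbp and Nr1d1, 2 of 10 members, against 1.86% of all genes. The scaling factor of HEP replicate 3 was the smallest, 0.64, against 0.83 for HEP replicate 1. Dividing by it raised every gene in HEP replicate 3 relative to the other libraries. That step itself lowered the shares of 1.86% and 7.26%, so they cannot show whether the members stand out. On that scale Dbp was 53.3, 76.4 and 77.9 for HFD and 103, 112 and 50.7 for HEP, and Nr1d1 was 83.1, 91.1 and 82.6 for HFD and 82.9, 92.6 and 55.6 for HEP. With 1 library on each side, no test of these ratios was possible, and the part of cell content in them was not tested.

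The members fell into profiles that were alike to different degrees. Likeness was measured as the root mean square difference of log2(TPM + 1) over the 6 libraries after each gene was centred on its mean, where a smaller value means more alike. The closest pair was Per2 and Nr1d2, at 0.14, followed by Per1 and Per2 at 0.16. Of the PAR bZIP factors, Tef lay nearest to Nr1d2, at 0.20. Per3 lay at 0.24 from Tef and at 0.54 from Dbp. Among 10158 other protein-coding genes averaging 5 TPM or more, the nearest to Dbp was Bhlhe41, the clock repressor DEC2, at 0.19, followed by Gpx3, a secreted glutathione peroxidase, at 0.19 and Tacc2 at 0.21, where the median gene lay at 0.65. Like Dbp, Bhlhe41, Gpx3 and Tacc2 were highest in HEP replicate 2, rich in muscle and liver transcripts, and lowest in HEP replicate 3. Tacc2, for example, had 70.6 and 14.7 TPM there. Whether library content had a part in this likeness was not tested. The nearest to Nr1d1 were Cd248 at 0.09, Lrrn4cl at 0.09 and Mmp2, a gelatinase, at 0.12, with a median of 0.63. Cd248 encodes endosialin, a surface protein of stromal cells, and had 18.3, 20.6 and 12.3 TPM under HFD and 11.7, 21.7 and 6.01 TPM under HEP. The 5 progenitor markers summed to 771, 1021 and 615 TPM under HFD and to 637, 883 and 468 TPM under HEP, and 4 of them were lowest in HEP replicate 3, as Nr1d1 was. Whether stromal content had a part in the Nr1d1 values was not tested. The nearest to Cry1 was Actg1, the gene of cytoplasmic gamma actin, at 0.05, followed by Rrp8 at 0.09. Per1 lay nearest to Smurf1, Enoph1 and Mycbp2, at 0.03 to 0.04. Per2 lay nearest to Thbs3, Zcchc14 and Aspscr1, at 0.10 to 0.11. Clock lay nearest to Mospd2, Zfp982 and Trim41, at 0.07 to 0.08. The median gene lay at 0.45 from Cry1, 0.28 from Per1, 0.35 from Per2 and 0.31 from Clock. On this measure genes that vary little lie closer to most others, so distances are not on a par between genes.

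Of the 12 other genes of the clock loops, 10 passed the filter and 0 were called in either direction, with 7 fold changes above 0 and 3 below. Their median log2 fold change was 0.07, equal to that of all genes to 2 decimals. Bmal1, the partner of CLOCK, had 4.18, 2.44 and 4.14 TPM under HFD and 5.84, 2.57 and 6.20 TPM under HEP. HEP replicates 1 and 3 were the highest libraries, and HEP replicate 2 and HFD replicate 2 the lowest. Its log2 fold change was 0.31 ± 0.36 (SE), with a limma adjusted p of 0.879, and the fold change was 0.05 with the lymphocyte marker covariate and 0.64 without HEP replicate 2. The ratio of Nr1d1 to Bmal1 TPM was 24.6, 49.0 and 19.3 for HFD and 11.8, 43.4 and 5.70 for HEP. The ratio of Dbp to Bmal1 TPM was 15.8, 41.1 and 18.2 for HFD and 14.7, 52.7 and 5.19 for HEP. Both ratios were highest in HFD replicate 2 and HEP replicate 2 and lowest in HEP replicate 3. These are ratios of levels per length and were not tested.

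**Figure D4:**
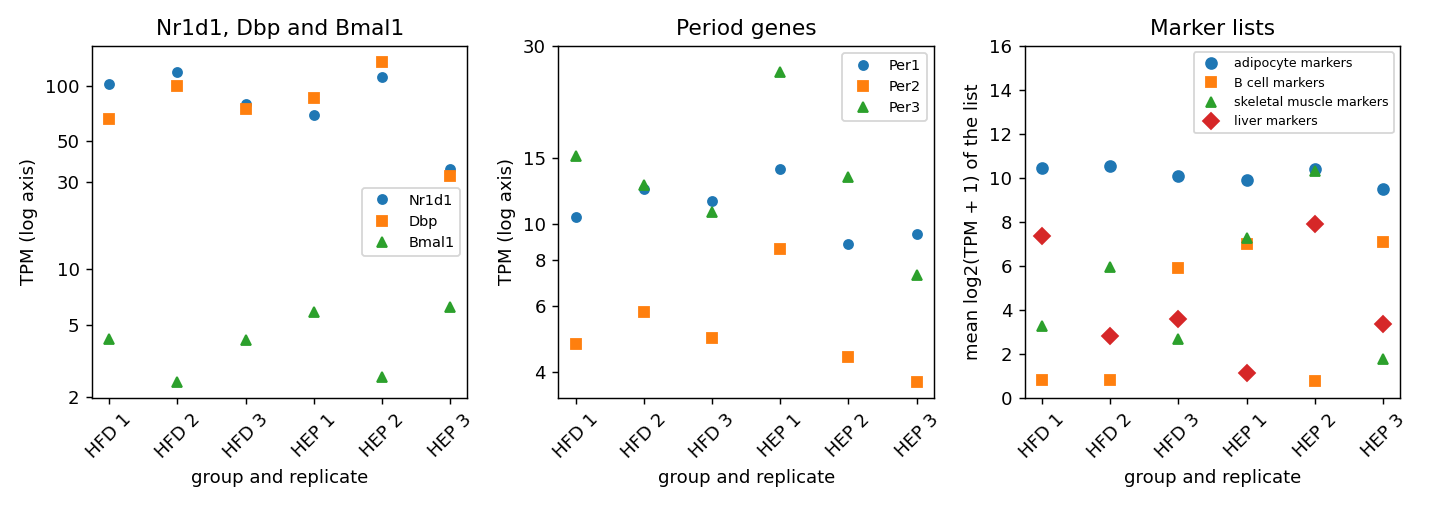
TPM of Nr1d1, Dbp and Bmal1 (left) and of the Period genes (middle) on log axes, and the mean log2(TPM + 1) of the adipocyte, B cell, skeletal muscle and liver marker lists (right), with 1 point for each library. Bmal1 is high in HEP replicate 3 (6.20 TPM), where Nr1d1 (35.3 TPM) and Dbp (32.2 TPM) are low. It is also high in HEP replicate 1 (5.84 TPM), where Nr1d1 is at 69.1 TPM, Dbp is at 86.1 TPM and the Period genes are at their highest. B cell markers are high in HFD replicate 3 and HEP replicates 1 and 3, and muscle markers in HEP replicate 2.

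The remaining loop genes differed in which library was highest or lowest. Rora, which encodes a ROR receptor that activates Bmal1, had 9.55 ± 1.59 TPM under HFD and 9.20 ± 1.81 TPM under HEP (SD, n = 3). Hlf, the third PAR bZIP factor, had 6.81 ± 2.38 TPM under HFD and 7.35 ± 2.58 TPM under HEP, and Nfil3, which competes with these factors at D-boxes, had 3.24 ± 0.23 and 3.23 ± 0.63 TPM. Bhlhe40 and Bhlhe41, the repressors DEC1 and DEC2, were highest in HEP replicate 2, at 34.2 and 12.3 TPM, and lowest in HEP replicate 3, at 11.8 and 3.10 TPM. Ciart, a repressor also called CHRONO, had 2.74, 3.95 and 4.77 TPM under HFD and 7.30, 3.50 and 2.02 TPM under HEP. As with Per2 and Per3, its highest library was HEP replicate 1 and its lowest HEP replicate 3. Cipc, an inhibitor of CLOCK, had 10.4 ± 0.35 TPM under HFD and 12.8 ± 3.06 TPM under HEP, and Bmal2 had 3.55 ± 1.83 and 3.59 ± 1.67 TPM. Adjusted limma p-values of these genes lay between 0.879 and 0.991. Npas2, which can stand in for CLOCK, and Rorb stayed under the filter, at no more than 0.52 and 0.27 TPM.

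Of the 17 genes whose products modify clock proteins, all were tested and 0 were called, with 12 fold changes above 0, 5 below and a median of 0.08. These are kinases that mark PER proteins (Csnk1d and Csnk1e), ubiquitin ligase parts that send PER to destruction (Btrc and Fbxw11) and others. The smallest unadjusted p-values were those of Sirt1, a deacetylase tied to the clock, and Nono, a PER partner. Sirt1 had 11.8 ± 0.95 TPM under HFD and 15.7 ± 5.05 TPM under HEP (SD, n = 3), and Nono had 101 ± 13.0 and 120 ± 37.0 TPM. Their log2 fold changes were 0.33 ± 0.26 and 0.20 ± 0.26 (SE), with limma adjusted p-values of 0.879 for both. Leaving out 1 library moved Sirt1 between 0.14 (HEP replicate 1 left out) and 0.60 (HEP replicate 2 left out), and Nono between 0.0037 and 0.47 for the same libraries. With the lymphocyte marker covariate Nono was at -0.02.

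Genes downstream of the clock and of the signals that set it gave 0 calls as well. All 10 rhythmic output genes were tested, 5 with a fold change above 0 and 5 below. Cdkn1a, the cell cycle inhibitor p21, which REV-ERB alpha represses in liver, had 46.0, 57.4 and 30.2 TPM under HFD and 24.1, 21.8 and 28.7 TPM under HEP. Its groups did not overlap, as for 5.46% of all genes. The log2 fold change was -0.78 ± 0.26 (SE), and its limma p was 0.0224 before and 0.879 after adjustment. With scaling on adipocyte markers the fold change was -0.36. Usp2, a deubiquitinase that cycles in many tissues, was at 13.2 TPM in HEP replicate 2 and between 0.81 and 3.71 TPM in the other libraries.

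The 12 glucocorticoid response genes had a median log2 fold change of -0.15, with 5 above and 7 below 0. Tsc22d3, which encodes the glucocorticoid-induced leucine zipper, had 136 ± 21.3 TPM under HFD and 113 ± 8.75 TPM under HEP (SD, n = 3), and Zbtb16 had 13.6 ± 2.46 and 9.74 ± 4.49 TPM. The limma adjusted p was 0.879 for both. The 8 temperature-linked genes had a median of 0.15, with 5 above and 3 below 0. Their smallest p-values were those of the heat shock genes Hsph1, at 18.8 ± 2.33 TPM under HFD and 25.0 ± 3.56 TPM under HEP, and Hspa1b, at 2.75 ± 0.43 and 2.08 ± 1.09 TPM, with adjusted limma p-values of 0.879 for both. Hspa1b has a near-identical copy, Hspa1a, so its value is uncertain.

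Immediate early genes, which respond to handling and to acute signals that also reach Per1, had 2 of 8 members at an unadjusted limma p under 0.05, against 1.81% of all genes, and 0 called. Fos had 33.6, 32.6 and 22.9 TPM under HFD and 17.0, 22.5 and 17.9 TPM under HEP, and its groups did not overlap. Nr4a1 had 3.74, 5.78 and 8.64 TPM under HFD and 9.62, 13.1 and 10.8 TPM under HEP, also without overlap and in the other direction, where 5.46% of all genes had groups that did not overlap. Their log2 fold changes were -0.60 ± 0.21 and 0.84 ± 0.30 (SE), with limma adjusted p-values of 0.879 for both. With scaling on adipocyte markers the fold change was -0.18 for Fos and 1.21 for Nr4a1. Per1 itself had a log2 fold change of -0.11 and a 95% interval from -0.64 to 0.42.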

How the data were processed

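TRIzol extraction and a TruSeq RNA kit were used for 3 HFD and 3 HEP samples, per the labels' protocols. The authors deposited TPM values for each gene in each sample and the mean of each group. Tools listed in the submitters' processing notes are DESeq2, fastp, HISAT2, RSEM and StringTie, with no roles, and the genome build is not given in the sources used here. Column totals were 999999.71 to 1000000.7, so depth is unknown.

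Samples were grouped by title. Genes averaging 1 TPM or more (15446 of 57180) were compared on log2(TPM + 1) with a trended variance prior by limma 3.58.1 under R 4.3.3, two-sided, with Benjamini-Hochberg adjustment over all of them and a threshold of 0.05. Fold changes understate those of low genes. The fit was tested on simulated data. Overlapping exons were taken from GENCODE M21, where all 10 members matched by ID, and promoters from RefSeq by symbol.

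The members and lists were chosen with earlier results of these data known. Named genes were the members, the other loop genes, the 2 smallest p-values of each further list and the 3 nearest profiles of Clock, Per1, Per2, Cry1, Nr1d1 and Dbp; a few of these are counted but not reported here by name. Alternatives were a pseudocount of 0.1, no filter, a 5 TPM filter on the mean, median-of-ratios scaling, scaling on adipocyte markers, a replicate block, a lymphoid covariate (the mean of the B and T cell markers) and leaving out each library. The endothelial (379 to 509 TPM), macrophage (118 to 268 TPM) and epithelial (1.5 to 7.8 TPM) marker sums were also read.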

Additional observations from a re-analysis of the deposited data

How the results depend on the processing

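The count of members called, of other loop genes called and of clock protein modifiers called was 0 under all 13 alternatives, and the count over all genes was 0 under all except without HEP replicate 2, where it was 1. Over the libraries left out in turn, that count ranged from 0 to 1 and the members' median log2 fold change from -0.27 to 0.20. That median was -0.05 as reported and moved by more than the spread between replicates only with adipocyte marker scaling, to 0.34. Of the 29 named genes with a fold change, 11 kept their direction throughout, among them Nr1d1 of the members, and 18 turned at least once, with no adjusted limma p under 0.05 for any of the 29. With adipocyte marker scaling the turned values were 0.0594 for Bhlhe41, 0.21 for Clock, 0.11 for Cry2, 0.29 for Dbp, 0.33 for Nfil3, 0.29 for Per1, 0.34 for Rora and 0.17 for Tsc22d3. With the lymphoid covariate they were 0.0313 for Bhlhe41, -0.0846 for Ciart, 0.18 for Dbp, -0.0203 for Nono, -0.0293 for Per2 and 0.0841 for Rora. With median-of-ratios scaling they were -0.0022 for Bmal2, -0.0143 for Ciart, -0.0260 for Nr1d2, -0.0151 for Per2 and -0.0216 for Tef. Leaving out 1 library turned 14 genes, over ranges of -0.30 to 0.0052 for Per1, -0.28 to 0.22 for Per2, -0.34 to 0.50 for Per3, -0.0597 to 0.50 for Cry1, -0.20 to 0.23 for Nr1d2, -0.58 to 0.44 for Dbp, -0.23 to 0.41 for Tef, -0.30 to 0.32 for Bmal2, -0.19 to 0.0640 for Rora, -0.18 to 0.34 for Hlf, -0.13 to 0.0855 for Nfil3, -0.18 to 0.55 for Bhlhe40, -0.71 to 0.13 for Bhlhe41 and -0.36 to 0.37 for Ciart. The cause was not tested.

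With the replicate block 0 genes were called, the smallest adjusted p of a member was 0.753, and the members' median was -0.05. Deviations of same-numbered libraries correlated at -0.35, 0.37 and 0.65 across genes, which are not independent replicates. Not every library correlated best with its own number. HFD replicate 3 correlated at 0.50 with HEP replicate 1 and at 0.65 with HEP replicate 3, all libraries rich in B cell markers. Such correlations mix in library content, so they cannot settle whether the numbers paired the samples. The wide intervals of Dbp, Per3 and Nr1d1 and the unknown read depth limit what size of difference these 6 libraries could show.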
